A study of Mus musculus with 96 samples.

Results

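The SR protein and heterogeneous nuclear ribonucleoprotein (hnRNP) genes, with a small set of core and regulatory splicing factors, were followed through the early erythroid progenitors of the mouse fetal liver. Members were the rows whose symbol begins with Srsf (11 genes) or Hnrnp (20 genes), together with 9 genes taken by symbol (Sf3b1, Sf3a1, U2af1, U2af2, Tra2a, Tra2b, Rbfox2, Mbnl1 and Ptbp1). This gave 40 of the 49466 genes in the count table. Pseudogene symbols ending in -ps were left out (2 rows, at most 1.42 reads per 1000000 over all kept wells).

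The cells were erythroid progenitors of C57/Bl6J mice at embryonic day 14.5, single cells in the 96 wells of 1 plate with libraries made by Smart-seq2, a full-length cDNA method. Lineage-positive cells had been removed, and 4 gates of 24 wells were sorted by Kit, CD71 and CD24. They were BFUE (burst-forming units, the earlier progenitor), an intermediate gate named for 25 to 35% of CD71/CD24 expression (here the lower intermediate), one named for 50 to 60% (the upper intermediate), and CFUE (colony-forming units, the later progenitor). No animal, pool or treatment is named in the labels, each gate filled 3 plate columns, and gate and plate column therefore cannot be told apart. Each gate is 1 sample, so no test was made, and all intervals are exact 95% intervals of counting error only. The reads carry no molecular identifiers and are not independent molecules.

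Introns are removed from nascent transcripts by the spliceosome, whose U2 particle (with the SF3A and SF3B complexes) and the U2AF heterodimer recognise the branch point and the end of the intron. SR proteins mostly bind exonic enhancers and recruit these factors, whereas hnRNPs package nascent RNA and often repress nearby splice sites, so the balance of the families helps to set which exons are kept. Red cell maturation is known for staged switches of exon use, and Sf3b1, Srsf2 and U2af1 are recurrently mutated in the myelodysplastic syndromes, which impair red cell production.

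The promoters of Srsf9, Hnrnph2 and Hnrnpul1 are shown because these 3 members differed most between the ends of the series among the SR and hnRNP genes. Each is the 250 bases before the RefSeq gene start (GRCm38.p6), 5′ to 3′ on the gene's strand, with motif matches in capitals. They lie at chr5:115326927-115327176 on the plus strand (Srsf9), chrX:134600929-134601178 on the plus strand (Hnrnph2) and chr7:25754760-25755009 on the minus strand (Hnrnpul1).
Srsf9: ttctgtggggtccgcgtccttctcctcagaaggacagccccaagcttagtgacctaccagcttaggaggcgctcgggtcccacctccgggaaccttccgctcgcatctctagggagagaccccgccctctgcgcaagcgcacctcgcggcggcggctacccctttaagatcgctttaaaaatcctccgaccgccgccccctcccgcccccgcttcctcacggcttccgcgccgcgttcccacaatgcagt
Hnrnph2: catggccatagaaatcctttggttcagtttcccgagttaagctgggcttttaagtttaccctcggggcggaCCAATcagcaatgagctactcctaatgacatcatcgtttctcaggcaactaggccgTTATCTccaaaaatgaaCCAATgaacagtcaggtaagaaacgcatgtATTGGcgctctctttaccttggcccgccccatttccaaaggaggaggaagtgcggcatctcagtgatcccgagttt
Hnrnpul1: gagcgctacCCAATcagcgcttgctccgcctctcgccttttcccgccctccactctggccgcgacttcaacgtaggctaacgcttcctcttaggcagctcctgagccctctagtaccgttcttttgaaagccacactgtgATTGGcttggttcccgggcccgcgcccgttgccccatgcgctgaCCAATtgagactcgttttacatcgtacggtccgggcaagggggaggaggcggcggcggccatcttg

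The motifs searched on both strands were the NF-Y box CCAAT, the ETS motif CCGGAAG and the motif AGATAA of the erythroid factor Gata1. Further motifs were the E-box CACGTG, the Klf motif CCACACCC, the cyclic AMP element TGACGTCA and the NRF1 motif GCGCATGC. No matches overlapped in the printed windows. The Srsf9 window held 0 matches. The Hnrnph2 window held 3 CCAAT matches, at -179, -106 and -76 from the start, and 1 AGATAA match at -123. The Hnrnpul1 window held 3 CCAAT matches, at -241, -110 and -66.

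RefSeq promoters were matched for 36 of the 40 members (50 windows, since a gene can have several starts). CCAAT was in 50.0% of the member windows and in 33.8% of all 32851 windows of the same length. CCGGAAG was in 10 of the 50 windows against 6.91% of all, and CACGTG in 5 of 50 against 6.02%. AGATAA was in 2 of 50 member windows against 9.99% of all windows, and CCACACCC in 0 of 50 against 3.2%. TGACGTCA was in 1 of 50 against 1.55%, and GCGCATGC in 3 of 50 against 2.26%. The windows also differed in composition, with a median of 66.6% G and C and 23 CpG in the members against 52.4% and 6 in all windows, and the part of this in the motif shares was not tested.

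The 91 wells with 50000 or more reads held between 947458 and 3785903 reads (median 9363 genes), and 5 wells with 10596 to 16644 reads were left out. The BFUE wells fell into 2 sets by Cd34, a marker of stem and multipotent progenitors, with 8 wells at 1036 CPM (reads of a gene per 1000000 reads) or more and 15 at 5.16 CPM or less. The summed erythroid markers (5 genes: Gata1, Klf1, Epor, Tfrc and Cd24a) ran from 62.7 to 438 CPM in the Cd34-high wells. They ran from 763 to 2344 CPM in the Cd34-low wells, and the median was 3722 CPM in CFUE. Tfrc and Cd24a encode CD71 and CD24, by which the gates were sorted, so this sum is not independent of the sort. Of these 5 markers, 4 were 1.5-fold or more lower in the summed Cd34-high wells and 1 was that much higher. The BFUE set was split by Cd34, and the Cd34-low wells stand for BFUE unless stated otherwise. Transcripts of hepatoblasts (3 genes) were present in every set, with well medians from 59 to 186 CPM and up to 1315 CPM in a Cd34-low well. Megakaryocyte markers (3 genes) had a median of 69.5 CPM in Cd34-low BFUE, up to 913 CPM, and 0.70 CPM in CFUE, with Pf4 at 0 in all sets. Macrophage markers (3 genes) had a median of 0 in all sets, and C1qa was at 0. Their part in the values below was not tested.

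Nearly all members were detected in single cells. Of the 40 members, 31 had a read in each of the 91 wells, and 37 reached 10 CPM in some set and are called measured here. Of the 20731 genes with a read in any of these wells, 2520 had a read in each. Leaving Cd34-high BFUE aside, 8439 of all genes reached 10 CPM in some set. The other 3 members were near or at 0. Srsf12, an SR protein gene, had no read in any kept well, which allows up to 0.0846 CPM in CFUE (3 reads of the summed total). Rbfox2, a regulator known for the exon switch of protein 4.1R in late erythroblasts, had 26 reads, all in 1 Cd34-high BFUE well. Hnrnpul2 had 941 reads in 59 of 91 wells (6.67 CPM over all kept wells).

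On a per-length scale (CPM per kb of exon, over all kept wells) the general RNA-packaging hnRNPs led. Hnrnpa1, a repressor of splice sites that competes with SR proteins, was at 273 CPM per kb, Hnrnpk, a binder of C-rich RNA, at 264, and Hnrnpa2b1, a close relative of Hnrnpa1, at 255. Srsf7 led the SR genes at 212 CPM per kb, ahead of Srsf6 at 126 and Srsf5 at 91.3. Ptbp1, a repressor that binds polypyrimidine tracts, was the highest of the 9 listed genes at 141 CPM per kb. Next to these, the core factors Sf3b1 (54.8 CPM per kb), U2af1 (52.8) and Sf3a1 (36.6) were lower.

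The summed level of the families barely moved from gate to gate. The 11 SR genes together took 3171 CPM in BFUE, 3475 in the lower intermediate, 3598 in the upper intermediate and 3569 in CFUE. The 20 hnRNP genes took 8006, 8557, 8622 and 8115 CPM in the same order, and the 9 listed genes 2908, 3022, 2898 and 2612 CPM. All 40 members together made up 1.41% of reads in BFUE, 1.51% in the lower intermediate, 1.51% in the upper intermediate and 1.43% in CFUE. The ranges over wells overlapped throughout: the SR sum lay between 2576 and 3865 CPM in BFUE wells and between 2390 and 5126 CPM in CFUE wells.

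**Figure D1:**
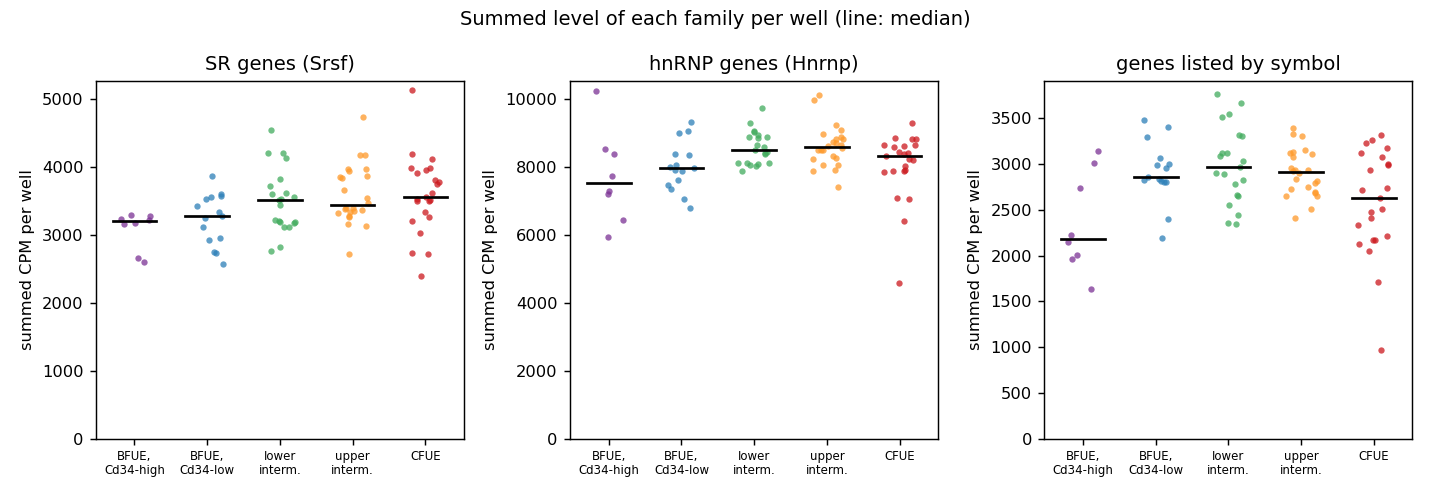
Summed CPM per well (vertical axis, from 0) of the SR genes, the hnRNP genes and the genes listed by symbol in the 5 sets of wells, with each point 1 well and each line the median. The sets overlap in every family, and the lowest hnRNP sum, 4593 CPM, and the lowest sum of the listed genes, 972 CPM, belong to the same CFUE well, D10.

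Between the ends of the series, CFUE against BFUE, most members stayed within a narrow band. Of the 37 measured members, 2 were 1.5-fold or more higher in CFUE (Srsf9 and Hnrnph2) and 2 were lower (Hnrnpul1 and Sf3a1), while 13.6% of all 8246 genes tested were that much higher and 24.9% lower (38.5% either way). At 50 CPM or more, 3 of 33 members and 28.3% of all genes passed. The median log2 ratio of CFUE over BFUE was -0.02 over the members and -0.11 over all genes. Within 0.32 either way on the log2 scale lay 30 of the 37 members, against 39.5% of all genes. No share at 50 CPM or more is given for that band, and the part of level in this contrast was not tested. The other 3 members outside that band were Srsf11 (1.32-fold higher), Srsf4 (1.41-fold lower) and Hnrnpd (1.34-fold lower, but 1.16-fold higher without BFUE well D3). Under TMM scaling the median of all genes moved by 0.11 on the log2 scale, the median of the members became 0.09, and the split became 2 higher and 1 lower, since Sf3a1 left the count. Against all 23 BFUE wells, 1 member was higher and 1 lower, where 13.7% and 29.6% of all genes were (43.4% either way).

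**Figure D2:**
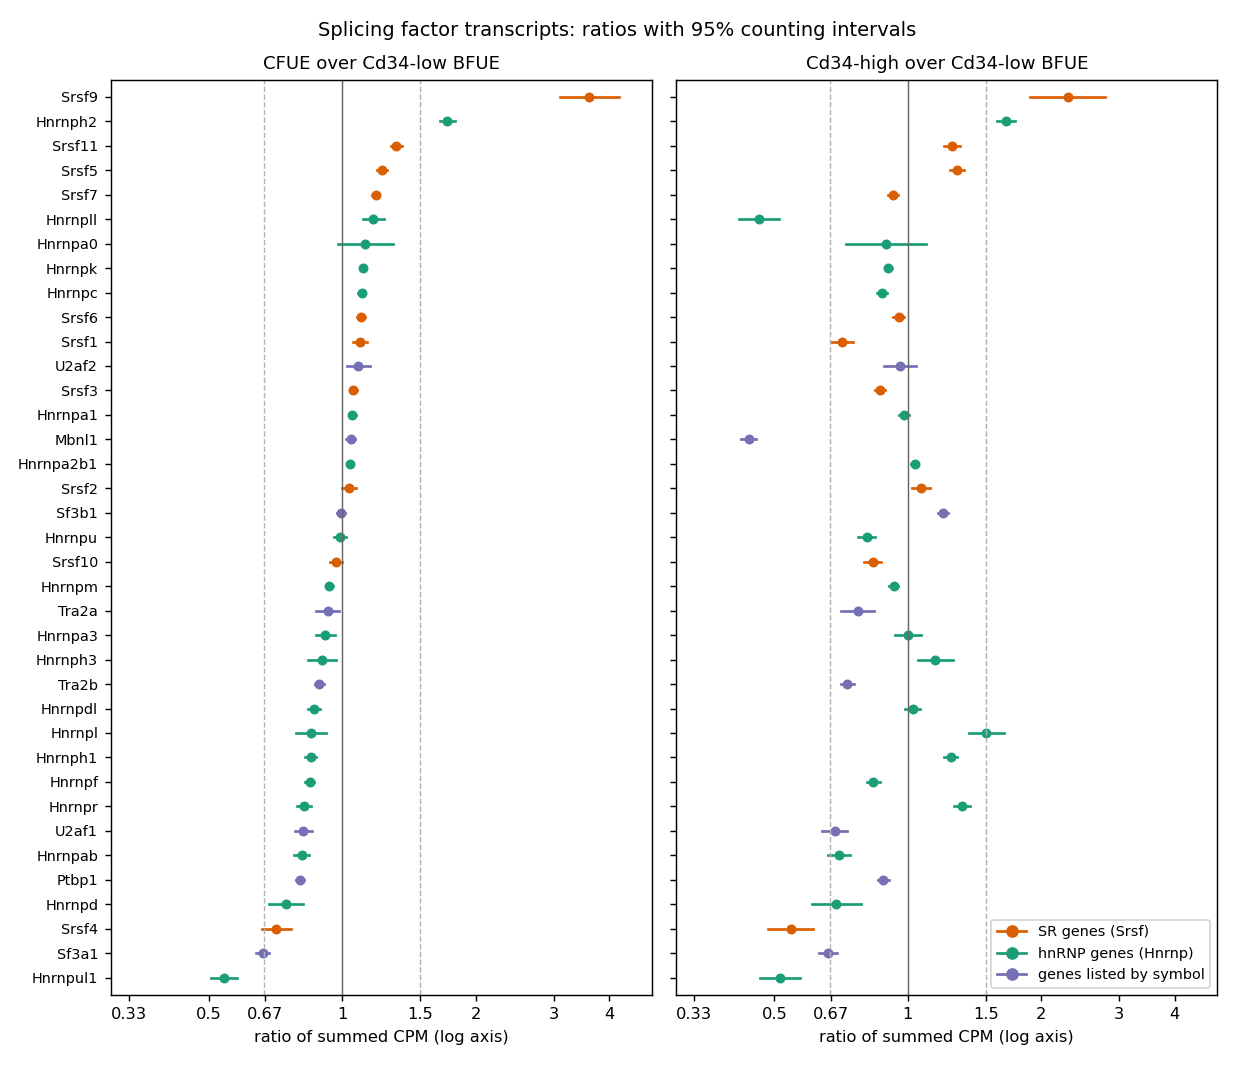
Ratio of summed CPM (horizontal log axis) for the 37 measured members, CFUE over Cd34-low BFUE at left and Cd34-high over Cd34-low BFUE at right, with points for ratios, bars for 95% counting intervals and dashed lines at 1.5-fold either way. At left, 4 members stand beyond the dashed lines, from Srsf9 at 3.61 to Hnrnpul1 at 0.54, and at right 8 do.

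The steps between neighbouring gates were smaller. Against BFUE, the lower intermediate had 1 member higher (Srsf9) and 2 lower (Hnrnpd and Hnrnpul1), where 9.54% of all genes were higher and 17.7% lower (27.2% either way, and 15.7% against 1 of 33 members at 50 CPM or more). TMM scaling moved this split to 2 higher and 2 lower. Between the intermediates, 3 members were higher in the upper one (Hnrnpll, Hnrnpu and Srsf9) and 0 lower, with 7.34% and 9.27% of all genes (16.6% either way, and 7.27% against 2 of 32 members at 50 CPM or more). Between the upper intermediate and CFUE, 0 members passed 1.5-fold either way, with 7.98% of all genes higher and 9.7% lower in CFUE (17.7% either way, and 7.65% at 50 CPM or more).

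Among the SR genes, Srsf9, a short SR protein with 2 RNA recognition motifs and a brief arginine-serine tail, had the largest difference of any member. It lies on chromosome 5 (115327177 to 115333080, GRCm38). Its wells ran from 0 to 22.6 CPM in BFUE (median 5.28), from 0 to 55.8 in the lower intermediate (median 10.8), from 0 to 74.7 in the upper intermediate (median 19.2) and from 2.14 to 83.4 CPM in CFUE (median 22.6). The ranges overlapped, yet 21 of 23 CFUE wells lay above the BFUE median and 11 above the highest BFUE well. Summed, Srsf9 was at 7.9, 17.7, 27.4 and 28.5 CPM through the 4 sets, and CFUE was 3.61-fold above BFUE (3.1 to 4.21). The ratio was 5.33 in plate rows A-D and 2.51 in rows E-H. The step from BFUE to the lower intermediate was 2.25-fold (1.91 to 2.65). The step from there to the upper intermediate, 1.54-fold (1.39 to 1.72), was 1.41-fold without upper well D8 and 1.08-fold in rows E-H.

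Srsf4, on chromosome 4 (131873617 to 131901706), which shares its domain layout with Srsf5 and Srsf6, was the SR gene that stood lowest in CFUE relative to BFUE. Its wells ran from 15.8 to 94.2 CPM in BFUE (median 54.3) and from 0 to 75.5 CPM in CFUE (median 42.2), and 4 of 23 CFUE wells lay above the BFUE median. The summed levels were 55.8, 65.3, 53.2 and 39.6 CPM, 1.41-fold lower in CFUE (1.31 to 1.52), short of the 1.5-fold limit. Srsf11, an SR-related partner of U2AF, went the other way, from 253 CPM in BFUE to 330, 322 and 334 CPM, with 19 of 23 CFUE wells above the BFUE median and a ratio of 1.32 (1.28 to 1.36).

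The other measured SR genes stayed under 1.5-fold across the 4 sets. Srsf3, which also couples splicing to mRNA export, was the steadiest member of all, at 648, 691, 683 and 686 CPM through the 4 sets, a span of 1.07-fold between the lowest and the highest. Srsf7, its close relative, was at 695, 744, 767 and 827 CPM, and Srsf3 made up 29.5% of the pair per kb in BFUE and 27.2% in CFUE. Srsf6 was between 548 and 659 CPM, Srsf5 between 310 and 380 CPM, and Srsf10, which turns repressor when dephosphorylated, between 259 and 303 CPM. Srsf1, the founding SR protein, was between 159 and 203 CPM. Srsf2, known as SC35, had the widest span of the group after Srsf9 and Srsf4, from 160 CPM in the lower to 234 CPM in the upper intermediate. Srsf2 overlaps Mettl23 and Mfsd11, and since the strand setting of the counting is not given in the sources used here, reads of these genes cannot be told apart with certainty.

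**Figure D3:**
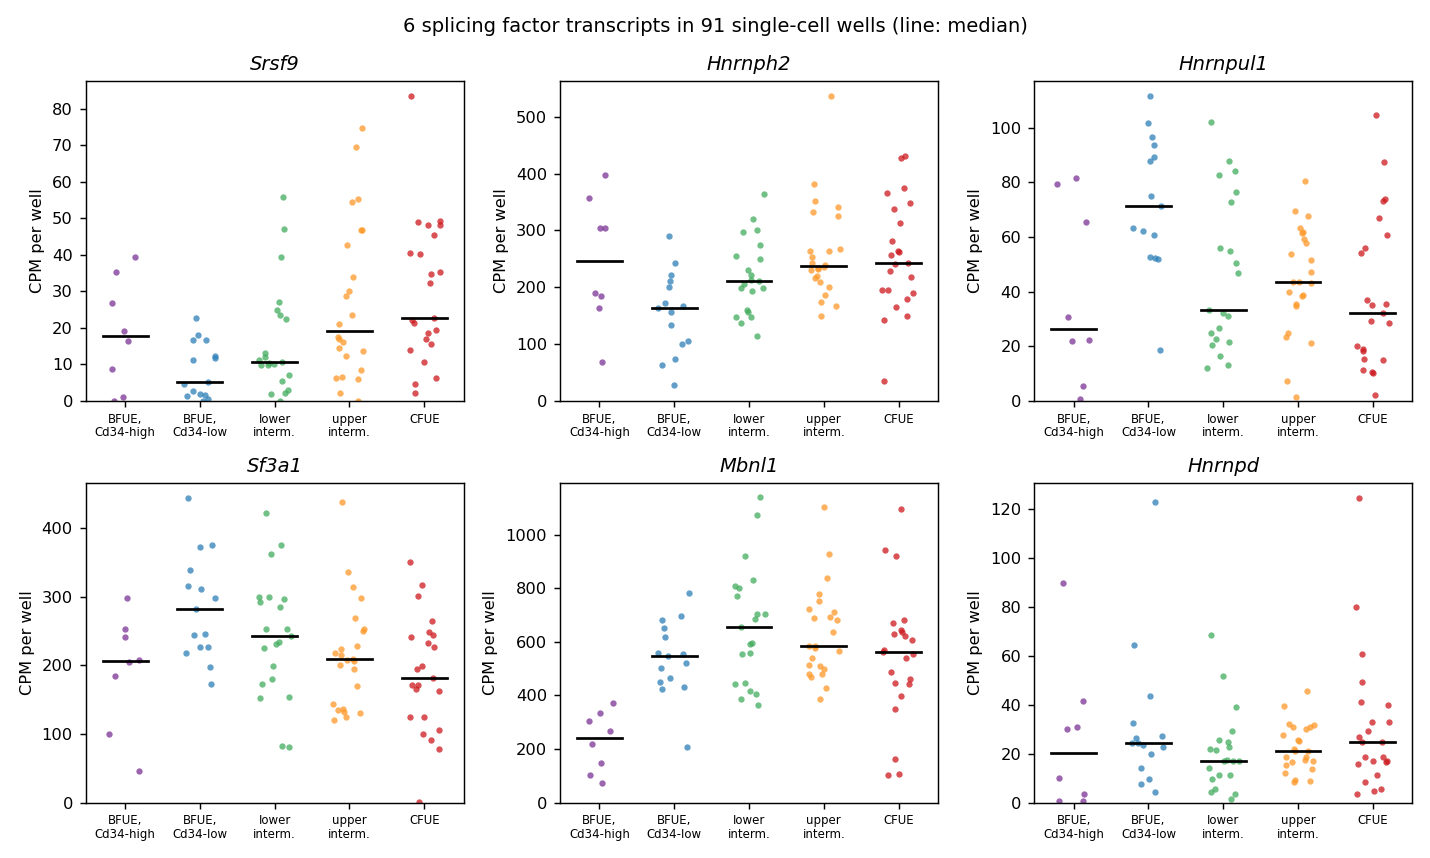
CPM per well (vertical axes, from 0) of 6 members in the 5 sets of wells, with each point 1 of the 91 wells and each line the median. The Srsf9 and Hnrnph2 medians stand higher in CFUE than in Cd34-low BFUE, the Hnrnpul1 and Sf3a1 medians lower, and 14 of the 15 Cd34-low wells lie above every Cd34-high well for Mbnl1.

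Among the hnRNP genes, Hnrnpa2b1, Hnrnpc and Hnrnpk had the smallest spans over the 4 sets, 1.1-fold, 1.1-fold and 1.11-fold. Hnrnpk was at 1631, 1751, 1692 and 1815 CPM through the 4 sets and Hnrnpa2b1 at 1592, 1749, 1724 and 1651 CPM. Hnrnpc, which binds U tracts and guards against false exons, was at 756, 797, 829 and 835 CPM, and Hnrnpm at 859, 932, 851 and 802 CPM. Hnrnpa1 had a wider span, 1.35-fold, and stood highest in the intermediates, at 743 CPM in BFUE, 1006 and 942 CPM in the intermediates and 782 CPM in CFUE. Its share of the pair with Hnrnpa2b1, per kb, was 49.4% in BFUE, 54.6% in the lower intermediate and 49.7% in CFUE.

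The H family, whose proteins bind runs of G, differed between its 2 main members. Hnrnph2, on the X chromosome (134601179 to 134607060), ran from 28 to 291 CPM in BFUE wells (median 164) and from 35.9 to 432 CPM in CFUE wells (median 243). 20 of 23 CFUE wells lay above the BFUE median and 7 above the highest BFUE well. Its summed levels were 149, 216, 260 and 257 CPM, 1.72-fold higher in CFUE (1.66 to 1.79), but 1.43-fold when CFUE was set against all 23 BFUE wells. Hnrnph1, the paralogue on chromosome 11, was at 327, 412, 329 and 277 CPM, and was 1.18-fold lower in CFUE (1.15 to 1.21). Per kb, Hnrnph2 made up 37.9% of the pair in BFUE, 41.2% in the lower intermediate, 51.4% in the upper intermediate and 55.4% in CFUE. Over wells that share ran from 8.44 to 59.3% in BFUE (median 39.2%) and from 35.7 to 86.9% in CFUE (median 56.6%), so the ranges overlapped. How reads common to paralogues were counted is not given in the sources used here. Hnrnpf, of the same family, was between 451 and 535 CPM in all 4 sets.

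Hnrnpul1, a relative of Hnrnpu on chromosome 7 (25721165 to 25754757), was the member furthest below BFUE in CFUE. Its wells ran from 18.7 to 112 CPM in BFUE (median 71.3), from 12 to 102 in the lower intermediate (median 33.2), from 1.3 to 80.5 in the upper intermediate (median 43.5) and from 2.14 to 105 CPM in CFUE (median 32.2). 19 of 23 CFUE wells lay below the BFUE median and 7 below the lowest BFUE well. Summed levels were 74.4, 43.2, 44.6 and 40.2 CPM, so nearly all of the difference lay at the first step, 1.72-fold lower (1.61 to 1.85). Over the whole series it was 1.85-fold lower in CFUE (1.73 to 1.98).

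A further 3 hnRNP genes passed 1.5-fold at a single step, of which Hnrnpd and Hnrnpu did not without 1 well. Hnrnpd (AUF1; chromosome 5, 99955935 to 99978938), which also speeds the decay of AU-rich mRNAs, was at 39.2 CPM in BFUE and 20.8 CPM in the lower intermediate, 1.89-fold lower (1.71 to 2.09). BFUE well D3, the deepest of all, held 45.2% of the BFUE reads of Hnrnpd, and without it the difference was 1.21-fold. Hnrnpu, the scaffold attachment factor (chromosome 1, 178321108 to 178337797), was 1.56-fold higher in the upper than in the lower intermediate (348 against 223 CPM), but 1.43-fold without upper well B9, and the well medians were 237 and 205 CPM. Hnrnpll (chromosome 17, 80029487 to 80062334), known for the exon switch of CD45 in T cells, was 1.59-fold higher there (1.51 to 1.67), with wells from 0 to 255 CPM in the upper (median 121) and from 9.26 to 253 CPM in the lower intermediate (median 54.3). The Hnrnpll ratio was 1.51 without upper well G8 and 1.44 in plate rows A-D.

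With all wells, the remaining measured hnRNP genes stayed under 1.5-fold over the 4 sets. Hnrnpl, a paralogue of Hnrnpll that binds CA repeats, was between 38.9 and 45.9 CPM. Hnrnpdl was between 247 and 341 CPM, Hnrnpr between 167 and 213 CPM, and Hnrnpab between 160 and 198 CPM. Hnrnpa3 lay between 86.5 and 104 CPM, Hnrnph3 between 47.8 and 60.5 CPM, and Hnrnpa0 between 12.2 and 14.2 CPM. Hnrnpa0 rested on CFUE well D10, which held 41.9% of its CFUE reads, and without that well CFUE was at 8.46 CPM and the span was 1.64-fold. Several of these genes overlap another protein-coding gene (Hnrnpk with Rmi1, Hnrnpab with Phykpl, Hnrnpu with Cox20, Hnrnpm with March2 and Hnrnph3 with Rufy2), with the same limit as for Srsf2.

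Among the core factors of the U2 step, Sf3b1 and Sf3a1 parted. Sf3b1, the branch point subunit of SF3B on chromosome 1 (54985169 to 55027481), was at 628, 586, 609 and 624 CPM, with wells from 287 to 1072 CPM in BFUE (median 620.5) and from 242 to 892 CPM in CFUE (median 659). Its span over the 4 sets was 1.07-fold. Sf3a1, a subunit of SF3A on chromosome 11 (4160350 to 4182541), stepped down from 286 to 238, 216 and 189 CPM. In plate rows E-H alone, its log2 ratio of the upper over the lower intermediate was 0.17, against -0.14 over all wells. Its wells ran from 173 to 444 CPM in BFUE (median 282) and from 1.06 to 352 CPM in CFUE (median 182). 20 of 23 CFUE wells lay below the BFUE median, and 11 below the lowest BFUE well. The summed difference was 1.51-fold (1.47 to 1.57), at the limit of the count: it was 1.49-fold without BFUE well D3, and -0.56 in place of -0.60 on the log2 scale without CFUE well D10, both just under 1.5-fold. U2af1, which reads the AG at the end of the intron, was at 156, 149, 133 and 127 CPM. U2af2, its partner on the polypyrimidine tract, was at 69.2, 89, 78.8 and 75.1 CPM, and neither reached 1.5-fold at any step.

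Summed over all kept wells, the measured sequence-specific regulators stayed under 1.5-fold across the 4 sets. Tra2b, an activator that binds GA-rich exons, was at 476, 434, 439 and 422 CPM, and Tra2a at 76.6, 81.8, 83.3 and 70.9 CPM. The Tra2a ratio of CFUE over BFUE was 0.93 over all wells, 0.65 in plate rows A-D and 1.26 in rows E-H. Tra2a made up 17.6% of the pair per kb in BFUE and 18.3% in CFUE. Ptbp1 was at 683, 776, 711 and 548 CPM and so stood lowest in CFUE, at 0.802 of the BFUE level (0.786 to 0.819), with 5 of 23 CFUE wells above the BFUE median. Its neuronal paralogue Ptbp2 made up 0.83% of the pair per kb in BFUE and 0.21% in CFUE. Mbnl1, a muscleblind protein that controls exons during late erythroid maturation, was at 533, 668, 628 and 556 CPM, and 13 of 23 CFUE wells lay above its BFUE median.

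The split within the BFUE gate set more members apart than any step between gates. Of 37 measured members, 3 were 1.5-fold or more higher in Cd34-high than in Cd34-low wells (Srsf9, Hnrnph2 and Hnrnpl) and 5 were lower (Mbnl1, Hnrnpll, Hnrnpul1, Srsf4 and Sf3a1). Of all 9224 genes, 30.4% were higher and 25.4% lower. Either way, 21.6% of members and 55.8% of all genes passed, and at 50 CPM or more 20.6% of 34 members and 48.3% of all genes. Their median log2 ratio was -0.15, against 0.03 over all genes. TMM scaling gave 2 higher and 7 lower. The Cd34-high wells also held 223 to 6646 CPM of neutrophil and monocyte markers (Mpo and Prtn3, with Elane at 0), against 1.32 to 88.1 CPM in Cd34-low wells, and the part of this in the differences was not tested.

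Mbnl1, on chromosome 3 (60472830 to 60629750), was the measured member furthest below Cd34-low BFUE by its summed ratio. It ran from 72.7 to 372 CPM over the 8 Cd34-high wells (median 243) and from 208 to 782 CPM over the 15 Cd34-low wells (median 546). 14 of the 15 Cd34-low wells lay above the highest Cd34-high well, and the exception was well A1. Summed, it was 233 against 533 CPM, 2.29-fold lower in Cd34-high wells (2.2 to 2.38). Its paralogue Mbnl2 took 31.8% of the pair with Mbnl1, per kb, in Cd34-high wells and 6.56% in Cd34-low wells.

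For Srsf4, too, no Cd34-high well lay above the Cd34-low median, and this also held for Hnrnpab, with Cd34-high wells up to 200.2 CPM and a Cd34-low median of 216 CPM. The Srsf4 Cd34-high wells ran from 8.65 to 53.1 CPM and the Cd34-low wells from 15.8 to 94.2 CPM, 1.84-fold lower when summed (1.64 to 2.07), but 1.26-fold in plate rows A-D. Hnrnpll was 2.17-fold lower (1.96 to 2.41) and Hnrnpul1 1.94-fold lower (1.75 to 2.15), each with 2 of 8 Cd34-high wells above the Cd34-low median. Sf3a1 was 1.51-fold lower (1.44 to 1.59), and 1.49-fold without BFUE well D3. It passed 1.5-fold under 6 of 12 alternatives, and the smallest difference among them was -0.32 on the log2 scale.

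The members that stood higher in Cd34-high wells included both that stood higher in CFUE. Hnrnph2 was at 249 against 149 CPM, 1.67-fold higher (1.59 to 1.75), with 6 of 8 wells above the Cd34-low median, but 1.39-fold in plate rows E-H. Srsf9 was at 18.1 against 7.9 CPM, 2.29-fold higher (1.89 to 2.79), but 1.24-fold in plate rows E-H. Both were thus lowest in the Cd34-low BFUE wells of all 5 sets. Hnrnpl was 1.51-fold higher (1.38 to 1.65), yet 1.16-fold without well H2, which held 32.2% of its Cd34-high reads.

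Within a set, most members varied little from well to well for their level. The coefficient of variation (the SD over the mean of CPM between wells, averaged over the 4 sets) was 0.127 for Hnrnpk and 0.151 for Hnrnpa2b1, against a median of 0.196 over the 86 genes above 1000 CPM. Between 300 and 1000 CPM, 10 of 14 members lay below the median of 0.291 over 557 genes, and Hnrnpc was the lowest at 0.177. Between 100 and 300 CPM, 7 of 10 members lay below the median of 0.434, led by U2af1 at 0.27. Hnrnpu, at 0.515, was the most variable of that band. Between 50 and 100 CPM, 6 of 7 lay below 0.629, with U2af2 at 0.348 and Hnrnpll, the exception, at 0.711.

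**Figure D4:**
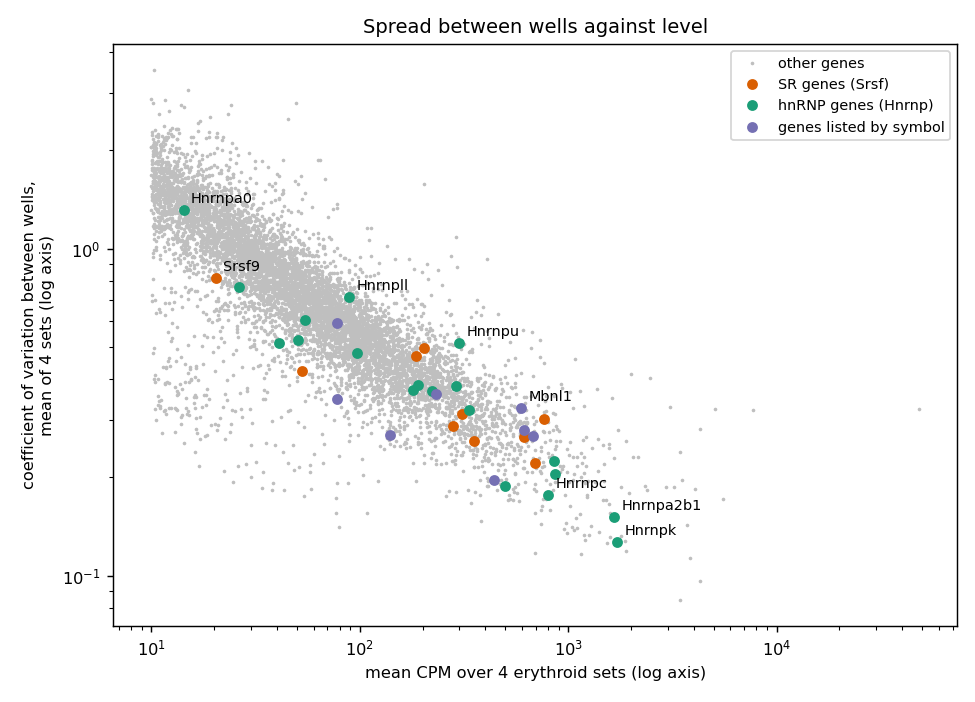
Coefficient of variation between wells (vertical log axis) against mean CPM (horizontal log axis), each averaged over the 4 erythroid sets, for genes at 10 CPM or more, with members in colour. Hnrnpk (0.127) and Hnrnpa2b1 (0.151) lie at the lower right, and Hnrnpu (0.515) and Hnrnpll (0.711) lie above most genes of their level.

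The same steadiness appeared between the sets. The span from the lowest to the highest of the 4 sets had a median of 0.33 on the log2 scale over the 37 measured members and 0.66 over 8439 genes, and 78.4% of members stayed under 1.5-fold against 43.7% of all genes. Among genes at 50 CPM or more the shares were 81.8% of 33 members and 59.4% of 4770 genes. The 8 members past 1.5-fold were Srsf9, Hnrnpd, Hnrnpul1, Hnrnph2, Srsf4, Hnrnpll, Hnrnpu and Sf3a1. Without CFUE well D10 there were again 8, with Hnrnpa0 (1.64-fold) in place of Sf3a1 (1.47-fold).

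Most pairs of members had low correlations from cell to cell, where counting noise also lowers r. Over 82 wells (4 sets, without CFUE well D10) and 32 members, the median Pearson correlation of the 496 pairs was 0.05, on log2(CPM + 10) with set means removed. 5 pairs exceeded 0.5. The share of pairs of other genes past 0.5 is not given here, so whether these pairs are unusual was not tested. Srsf2 with Hnrnpab was at 0.55 (rho 0.52, r from 0.46 to 0.62 within the sets) and Srsf2 with Hnrnpu at 0.51 (rho 0.59, r from 0.43 to 0.71). Without the 2 farthest wells these were 0.55 and 0.57. The 3 pairs with Hnrnpm (Hnrnpf, Srsf11 and Srsf4) were at 0.74, 0.62 and 0.51, and at -0.02, 0.10 and 0.23 when CFUE well A10 and 1 other well each were left out. The lowest correlation was -0.37, for Hnrnpm with Srsf3, and -0.19 without the 2 farthest wells. Srsf6 and Srsf1, each with Tra2b, were at -0.31 and -0.29, and at -0.29 and -0.32 without such wells. Wells share the plate and the total that scales them, so these values describe the wells only.

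**Figure D5:**
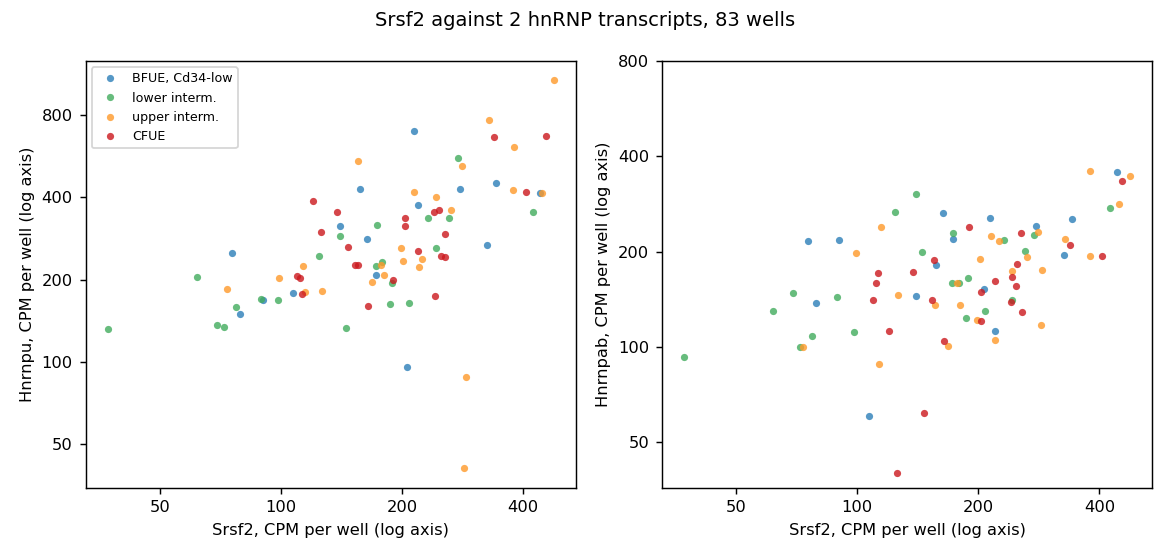
CPM per well of Hnrnpu (left) and Hnrnpab (right) against Srsf2 (log axes) in 83 wells of the 4 sets, coloured by set. Both hnRNP transcripts tend to stand higher where Srsf2 does, with r = 0.51 and r = 0.55 over 82 wells, and the colours mix.

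CFUE well D10 stood apart in depth and in genes detected, and many members lay at the edges there. It had the fewest reads of the kept wells (947458) and 6361 genes against a median of 9292 in the other 22 CFUE wells. 18 of the 40 members lay below and 7 above the range of those 22 wells. The share of all genes outside that range is not given here, so these counts are not particular to the members. Srsf7 was at 2514 CPM against at most 1569 elsewhere in CFUE and Srsf3 at 1779.5 CPM against at most 1099, while Ptbp1 was at 8.44 CPM against at least 211. Without this well, CFUE against BFUE had 2 members higher and 1 lower, since Sf3a1 left the count, and the median log2 ratio of the members was -0.06. Without wells D10 and A10 together, Hnrnpd, at -0.64 on the log2 scale, was counted as lower in place of Sf3a1, at -0.53.

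A wider set of 88 splicing genes in 8 lists gave the setting: the U1, U2 and tri-snRNP particles, the Sm core, kinases of SR proteins, SR-related coactivators, other regulators and hnRNP-related proteins. Between CFUE and BFUE, 4 of 82 measured genes were 1.5-fold or more higher and 7 lower, where 13.6% and 24.9% of all genes were. Their median log2 ratio was -0.11, as it was over all genes. The Sm core and the U1 list had 0 genes past the limit either way (7 genes each). Of the 7 lower genes, 3 were on the list of other regulators, 2 were hnRNP-related, 1 was a kinase and 1 a coactivator. Celf2, a binder of GU-rich RNA, ran from 1.86 to 235 CPM in BFUE wells and from 0 to 2.7 CPM in CFUE wells, with summed levels of 88.6, 7.44, 0.49 and 0.31 CPM. Matr3, a nuclear matrix protein, stepped down from 267 to 227, 188 and 122 CPM, 2.18-fold (2.1 to 2.27), with no CFUE well above the BFUE median. Srpk2, a kinase of SR proteins, was 2.85-fold lower (42.4 against 14.9 CPM), Cirbp, a cold-induced RNA-binding protein, 2.17-fold and Ptbp2 4.84-fold. Ptbp2 was 2.97-fold lower without BFUE well D3. Tia1, which helps U1 to bind, was 1.68-fold lower, and 1.37-fold without well D3. Srrm2, a large SR-related protein of nuclear speckles, was 1.56-fold lower, and 1.49-fold without well D3.

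The 4 higher genes came from different lists. Phf5a, a small subunit of SF3B, stepped up from 225 to 296, 349.6 and 404 CPM, 1.8-fold (1.74 to 1.85), and all 23 CFUE wells lay above the BFUE median. Clk3, a kinase of SR proteins, was 2.18-fold higher (45.2 against 98.6 CPM), with 19 of 23 CFUE wells above that median. Ddx23, a helicase of the tri-snRNP, was 1.74-fold higher (11.4 against 19.9 CPM) and Qk, a regulator that binds introns, 1.67-fold (9.65 against 16.1 CPM), or 1.4-fold without CFUE well D10 and 0.793 times the BFUE level in plate rows E-H. Within BFUE, 15 of the 82 genes were higher and 12 lower in Cd34-high wells, beside 30.4% and 25.4% of all genes. There Celf2 was 3.6-fold higher (319 against 88.6 CPM) and Prpf3, of the tri-snRNP, 4.35-fold lower (33.3 against 145 CPM).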

How the data were processed

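The deposited table gives a raw count of reads for each gene in each of 96 wells, in whole numbers. Per the submitters' processing notes, the authors used STAR 2.4, GRCm38 as the genome build and featureCounts. Not given in the sources used here were the featureCounts version, the annotation release, the strand setting and how shared reads were treated. No 2 wells held identical counts. The header line holds 1 empty cell more than the data lines, and names were taken in order.

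The members and gene lists were chosen with earlier results of these data known. For 76 symbols with several identifiers, the one with most reads was used. Positions and exon lengths are from GENCODE M21 (GRCm38, 1-based), and promoters from RefSeq (GRCm38.p6). Wells with 50000 or more reads were kept and BFUE was split at 100 CPM of Cd34. Each well was sorted as 1 cell, and doublets were not called. Counts were summed per set and expressed as CPM of all counts. Ratios have exact conditional binomial (Clopper-Pearson) intervals. A comparison took the genes with at least 10 CPM in 1 of its sets and counted those with 1.5-fold or more. Where a set had no read, 3 counts over the set served as the floor.

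Members named at length passed 1.5-fold in any of 5 comparisons and had 1 direction in both plate parts (rows A-D and rows E-H). The 3 highest per kb of each family, the 9 listed genes, and up to 6 genes either way from the wider lists were named too. Srsf4 and Srsf11 in CFUE, Srrm2, Prpf3 and the other members were named after their values were seen. Alternatives were well means and medians, TMM factors (edgeR 4.0.16), size factors (DESeq2 1.42.0), other totals, each plate part alone, other well filters, thinning to 500000 reads, other limits, and wells left out after seeing the data. No count test was run. The interval code was tested on simulated Poisson counts. These share the assumption of independent reads, so the test cannot show how well the intervals hold for these wells. Python 3.11.15 and R 4.3.3 were used.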

Additional observations from a re-analysis of the deposited data

Results flagged for a closer look

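The 5 wells left out for low depth held reads of the members too: 808 of their 70200 reads, or 1.151%, where a count of 0 allows up to 0.00427%. These wells entered no comparison.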

How the results depend on the processing

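No paired analysis was possible because the results come from no test and the replicate numbers only give plate order. Of 18 member differences past 1.5-fold, 6 stayed past it under every alternative tried for them (other fold limits aside), and none of the 18 changed sign: Srsf9 and Hnrnpul1 in CFUE against BFUE, Srsf9 in the lower intermediate against BFUE, and Mbnl1, Hnrnpll and Hnrnpul1 in Cd34-high against Cd34-low BFUE. Of 154 counts of members under 19 alternatives, 108 were within 1.5 times the reported count and 46 were not, and the cause was not tested except where a limit itself was changed.

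Shares of all genes past 1.5-fold are given above for the main setting, at 50 CPM or more and for CFUE against all BFUE wells. For the other settings, here and above, no such share is given. Whether the members moved apart from the other genes there was not tested. For CFUE against BFUE (2 higher, 2 lower), the higher count was 1 with well medians, all BFUE wells, a 50 CPM minimum or a 2-fold limit, and 4 in plate rows A-D. The lower count was 1 with TMM factors, DESeq2 size factors, all BFUE wells or without CFUE well D10, 5 in rows A-D, 4 at a limit of 0.32 on the log2 scale (the small limit) and 0 at 2-fold. For the lower intermediate against BFUE (1 higher, 2 lower), the higher count was 2 with well medians, TMM factors, DESeq2 size factors, thinning or all BFUE wells, 3 in rows A-D, 0 at 50 CPM and 7 at the small limit. The lower count was 1 with well medians, all BFUE wells or 50 CPM, 4 in wells of 1500000 or more reads, 0 with thinning or at 2-fold, and 5 at the small limit. For the intermediates (3 higher, 0 lower), the higher count was 6 in wells of 1500000 or more reads, 5 at the small limit and 0 at 2-fold, and the lower count 1 in rows A-D, in rows E-H or at the small limit. For CFUE against the upper intermediate (0 and 0), the higher count was 1 in rows A-D, with thinning or at the small limit, and the lower count 2 with well medians, 3 in rows A-D and 4 at the small limit. For Cd34-high against Cd34-low BFUE (3 higher, 5 lower), the higher count was 0 in rows E-H, 6 at the small limit and 1 at 2-fold, and the lower count 9 in rows E-H or in wells of 1500000 or more reads, 11 at the small limit and 2 at 2-fold.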
